A study of Mus musculus with 127 samples.

Results

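The genes described here encode proteins that build ribosomes in the nucleolus. A list of 34 such genes was taken by their role in ribosome assembly, and 33 of them were found by symbol among the 23946 genes measured (Noc2l was not found). All 33 stood above 0 TPM (transcript reads scaled for length to a fixed total per cell) in at least 1 CD11b+ cell, as did 11604 genes in all. The cells came from hindlimb bone marrow of wild-type C57BL/6 mice. Cells bearing CD117, which is the receptor Kit, were held back on magnetic beads, and a population that the labels call GMP-P was then sorted from them. Each was captured and lysed on the Fluidigm C1, a microfluidic chip that makes cDNA from 1 cell at a time. There were 46 Ly6g high cells, 41 Ly6g low cells and 40 CD11b+ cells. Ly6g marks the surface of maturing granulocytes, and CD11b is an integrin chain of myeloid cells.

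The classes of the cells were those that the authors deposited. The CD11b+ gate held 8 Gran cells (4 Gran-1 and 4 Gran-2), 5 HSCP-2 cells, 3 Mono cells and 22 Myelo cells (1 Myelo-1, 14 Myelo-2, 4 Myelo-3 and 3 Myelo-4), besides 1 Eryth and 1 Multi-Lin cell. The question was how the members differ between the Gran, HSCP-2 and Mono cells and the Myelo cells of this gate. The labels name no animal and each gate is 1 sample, so cells are not replicates. The values below are therefore a description of these cells, with no p-value. All comparisons with Myelo share the same 22 Myelo cells.

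Ribosome building starts where RNA polymerase I copies the ribosomal DNA into a long precursor RNA. Small nucleolar ribonucleoproteins (snoRNPs) then guide the chemical marking of that RNA, box C/D particles its methylation and box H/ACA particles its conversion of uridine to pseudouridine, and assembly factors cut and fold it into the small and the large subunit. Dividing cells make many ribosomes, and granulocyte precursors are known to stop dividing and to lose their nucleoli as they mature.

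The class names were checked against marker genes. All 8 Gran cells carried 7 of 7 primary granule markers, with a median sum of 88445 TPM, against 221 TPM in Myelo cells. Myelo cells carried specific granule markers, with a median sum of 188887 TPM, against 208 TPM in Gran cells. The 3 Mono cells had 6 to 7 of 8 monocyte markers, and Csf1r, the receptor of a monocyte growth factor, stood at 8.36 TPM or more in each. The HSCP-2 cells were not alike. Cells 29, 43 and 44 carried the stem and progenitor genes Cd34, Gata2 and Meis1, whereas cells 21 and 39 had none of these at 1 TPM. Cell 21 had 31088 TPM of Mpo, the myeloperoxidase of primary granules, and cell 39 had 4765 TPM of Cpa3, a mast cell protease. Basophil and mast cell markers summed to a mean of 1672 TPM in HSCP-2 cells. One Myelo-4 cell, cell 46, went against its class, with 1237 TPM of the monocyte receptor Ccr2 and 14.99 TPM of Camp, a specific granule peptide. Members whose mean rests on 1 of these cells are given with and without it. The part of these cells in the other results was tested only by leaving out 1 cell at a time.

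The members were abundant in the 16 Gran, HSCP-2 and Mono cells and sparse in the Myelo cells. The summed level of the 33 members had a median of 3543 TPM in Gran cells (range 2663 to 5760), 7887 TPM in HSCP-2 cells (715 to 20789) and 7962 TPM in Mono cells (5081 to 8818), against 126.8 TPM in Myelo cells (2.08 to 2073). Only HSCP-2 cell 39, at 715 TPM, lay within the range of the Myelo cells. Of the 33 members, a median of 19 stood at 1 TPM or more in a Gran cell, 16 in an HSCP-2 cell and 27 in a Mono cell, against 4.5 in a Myelo cell. No Myelo cell had more than 10, and Mono cell 36 had 31.

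**Figure D1:**
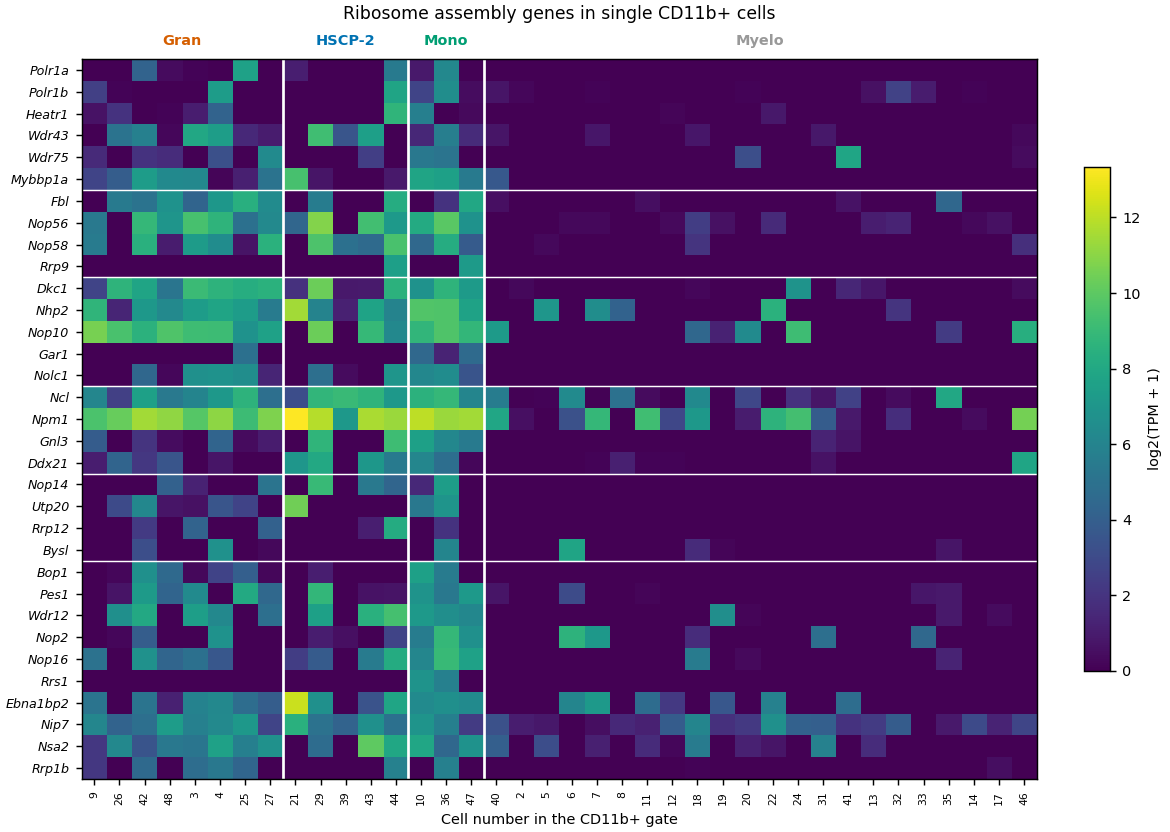
Level of each of the 33 members (rows, grouped by role) in each CD11b+ cell (columns, by deposited class), as log2(TPM + 1). A Gran cell shows a median of 19 members at 1 TPM or more, an HSCP-2 cell 16 (6 to 24) and a Mono cell 27, while the 22 Myelo cells show scattered cells with a signal.

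Depth in genes differed between the classes as well. A median of 4093.5 genes was detected at 1 TPM in a Gran cell, 2919 in an HSCP-2 cell and 4743 in a Mono cell, against 1902 in a Myelo cell. Per 1000 genes detected, the median number of members was 4.81 in Gran, 6.98 in HSCP-2 and 5.22 in Mono cells, against 2.25 in Myelo cells. Between 2000 and 3100 genes per cell, where 4 HSCP-2, 1 Gran and 10 Myelo cells lay, the summed level ran between 715 and 12074 TPM in HSCP-2 cells, stood at 2663 TPM in the Gran cell, and ran between 24 and 1365 TPM in Myelo cells. The difference was thus also seen within this range, except for HSCP-2 cell 39, but gene number was not closely matched there. The Gran cell had 2989 genes and the HSCP-2 cells 2163 to 3099 (median 2964), against 2234 to 2651 in the Myelo cells. TPM values are shares of a cell's transcripts, and granule genes took a mean of 13.3% of them in Gran, 1.47% in HSCP-2 and 6.23% in Mono cells, against 48.3% in Myelo cells. A smaller share of the transcripts and fewer transcripts per cell cannot be told apart here.

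**Figure D2:**
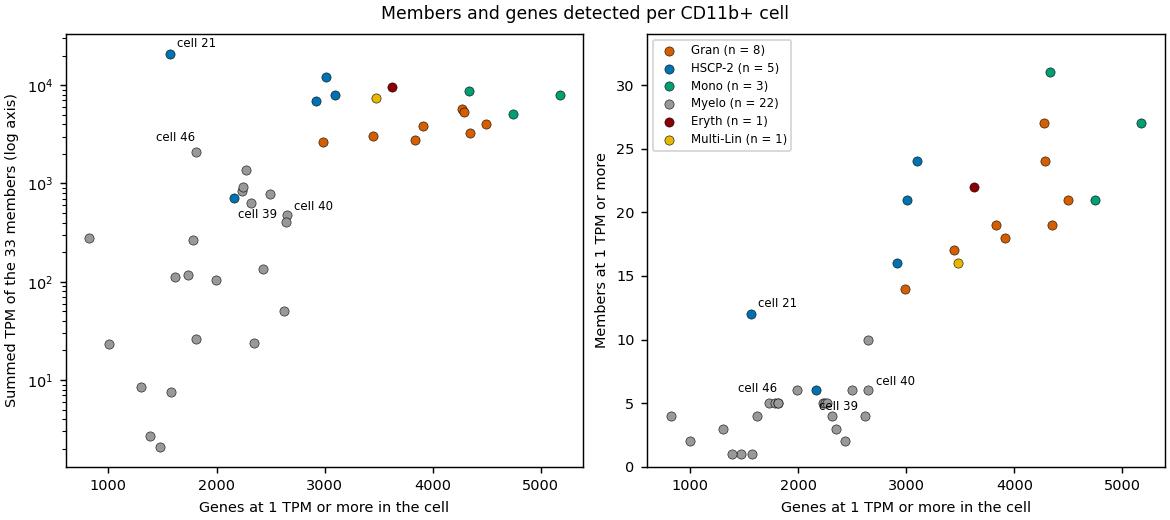
Summed TPM of the 33 members (left, log axis) and number of members at 1 TPM or more (right) against the number of genes at 1 TPM or more, 1 point per CD11b+ cell, coloured by deposited class. Gran, HSCP-2 and Mono cells lie above Myelo cells apart from HSCP-2 cell 39, and most of them also lie further to the right; cell 46 is the Myelo-4 cell whose markers go against its class.

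For each gene the ratio of class means was taken as log2 of mean TPM + 1 in one class over mean TPM + 1 in the other. A gene was called measured where at least 25% of the cells of either class stood at 1 TPM or more. Of the 30 members measured in the 16 Gran, HSCP-2 and Mono cells or in the Myelo cells, 28 were at least 2-fold higher in the 16 cells, a call that 58.3% of the 6159 measured genes also met. Of these members 0 were at least 2-fold lower, against 10.3% of measured genes. The median log2 ratio was 4.59 for these members and 1.39 for all measured genes. With no filter, 30 of the 33 members were at least 2-fold higher, against 47.7% of genes, and Wdr75, Bysl and Nop2 were not. Each of the 33 members was also detected in a larger share of the 16 cells than of the Myelo cells, which held for 77.2% of genes.

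There were 9 members listed at 0 TPM in all 22 Myelo cells, namely Polr1a, Rrp9, Gar1, Nolc1, Nop14, Utp20, Rrp12, Bop1 and Rrs1. Among measured genes this held for 7 of the 30 members and for 246 of the 6159 genes. Heatr1, Wdr43 and Rrp1b stayed under 1 TPM in every Myelo cell, and the share of all genes that did so is not given. A count of 0 of 22 cells allows a share of up to 13.6%. No fold is given for a member listed at 0. Where a ratio is called the highest, it is so at a pseudocount of 1 TPM among genes above 0 in Myelo cells. Over the 23 measured members above 0 in both groups, the median log2 ratio was 4.53, with 21 of them at least 2-fold higher, against 1.29 and 56.6% for the genes above 0 in both.

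**Figure D3:**
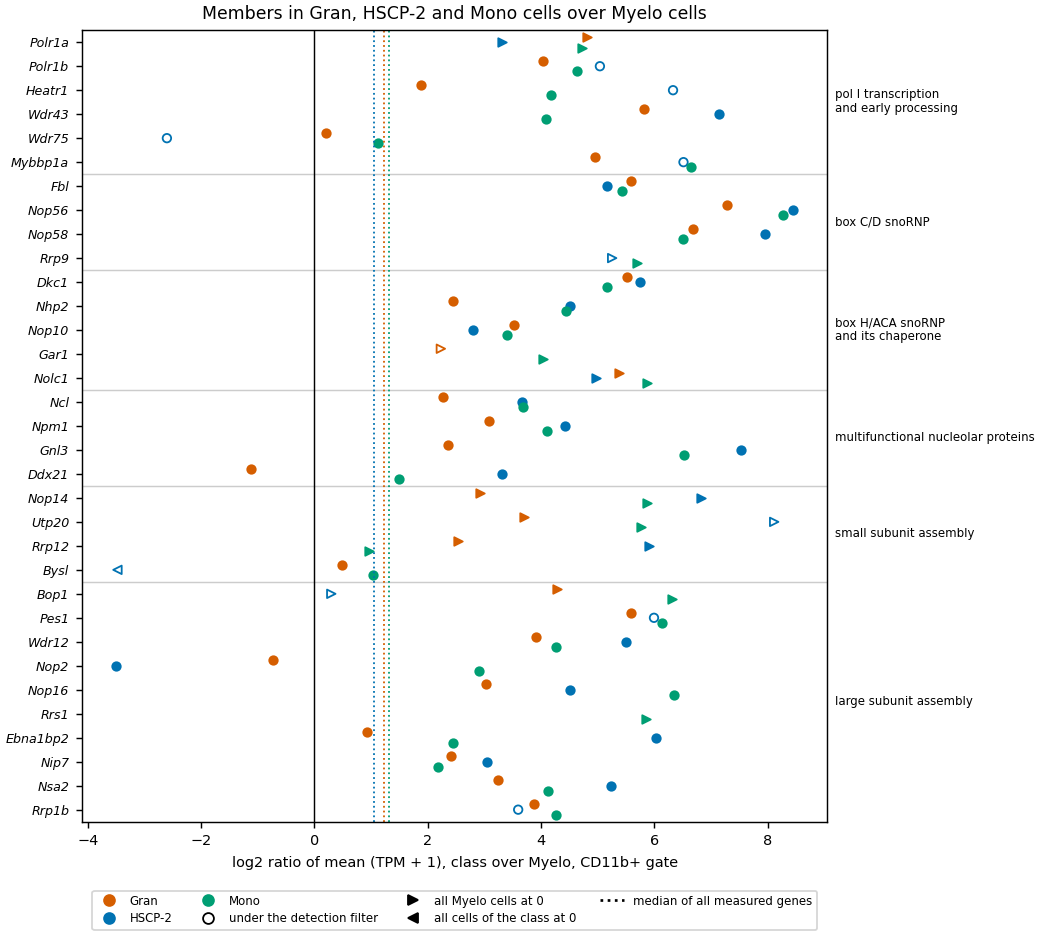
Log2 ratio of mean TPM + 1 for each member, Gran, HSCP-2 and Mono each over Myelo (filled where the gene is measured in that comparison, open where it is not); dotted lines are the medians of all measured genes, at 1.23, 1.05 and 1.32. Triangles mark a class listed at 0 in all its cells, where the position depends on the pseudocount; most members lie to the right of the dotted lines, and Ddx21, Nop2, Wdr75 and Bysl lie to the left of 0 in Gran or HSCP-2.

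The stretches before the start sites of the members were read from the RefSeq promoter table, which gives 250 bases before and 50 after each start on build GRCm38.p6 and matched 28 of the 33 members. The expression values were made on build mm9, so these coordinates belong to the sequences only. CACGTG, the E-box letters that Myc and related factors bind, were searched on both strands and stood in 5 of the 28 windows (17.9%), against 8.91% of the windows of 17492 protein-coding genes. The 5 are shown because they include Wdr43 and Pes1, with the highest ratio of their role, and Nop2, with the lowest of its role. The motif is in capitals:
Nop2, chr6:125131814-125131837, plus strand: tccctggatCACGTGtgttccggt
Wdr43, chr17:71616223-71616246, plus strand: ccgggcgaaCACGTGgctgccgcg
Pes1, chr11:3963968-3963991, plus strand: taggcagggCACGTGcgggaggaa
Mybbp1a, chr11:72441358-72441376, plus strand: ttctgagccCACGTGtttg
Utp20, chr10:88826765-88826786, minus strand: cactaactaCACGTGaggaaaa
The motif began 60 bases before the start in Nop2, and 3, 18, 38 and 41 bases into the transcript in Pes1, Wdr43, Utp20 and Mybbp1a.

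CCGGAAGT, the core bound by ETS factors, also stood in 5 of the 28 windows, on either strand, against 5.69% of coding genes. These windows are shown because the 5 members span 3 roles, with the motif in capitals (Gar1 carries its reverse complement, ACTTCCGG):
Nhp2, chr11:51619741-51619766, plus strand: cttgaaaacCCGGAAGTgatgtcgga
Gar1, chr3:129831424-129831449, minus strand: cgccgccacACTTCCGGaaacgtcgc
Heatr1, chr13:12395350-12395375, plus strand: agtgagaagCCGGAAGTtcctatgag
Ebna1bp2, chr4:118620787-118620812, plus strand: acgagaaaaCCGGAAGTgcggctatg
Nip7, chr8:107056765-107056790, plus strand: tttcggtccCCGGAAGTccgccacgg
No member carried both motifs in its window. TCTCGCGA was found in Nop14 and Nop58 (1.59% of coding genes) and CGCATGCG in none of the 28 (2.77% of coding genes). The 120 bases before the start of Nop56, the member with the highest ratio, held none of the motifs:
Nop56, chr2:130274292-130274411, plus strand: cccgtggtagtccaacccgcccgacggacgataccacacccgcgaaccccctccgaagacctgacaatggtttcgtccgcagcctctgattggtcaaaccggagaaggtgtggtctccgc
They contained 12 CpG pairs and 62.5% G and C. A match is a run of letters and says nothing of binding in these cells.

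Npm1, the abundant nucleolar chaperone nucleophosmin, was the highest member by TPM. It stood between 555 and 2902 TPM in Gran cells, with a median of 1484 TPM. HSCP-2 cells 21, 29, 39, 43 and 44 had 10305, 3675, 136, 3159 and 2591 TPM, and Mono cells 10, 36 and 47 had 4063, 2607 and 2847 TPM. Myelo cells had a median of 1.66 TPM and a highest value of 1510 TPM, in cell 46, whose markers go against its class. Npm1 was above 1 TPM in 16 of 16 of the Gran, HSCP-2 and Mono cells and in 12 of 22 Myelo cells, and the 3 Mono cells lay above every Myelo cell. The log2 ratio of the 16 cells over Myelo was 3.83, and 4.43 without cell 46. Npm1 made up a median of 43.2% of the members' sum in Gran cells, 32.8% in HSCP-2 and 51.03% in Mono cells, against 6.60% in Myelo cells. Processed pseudogenes of Npm1 exist, and how reads were shared with them is not given in the sources used here.

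Ncl encodes nucleolin, which binds the ribosomal DNA and the precursor RNA. Its level ran between 4.74 and 386 TPM in Gran cells, with a median of 64.995 TPM. HSCP-2 cells 21, 29, 39, 43 and 44 had 7.96, 444, 518, 406 and 137 TPM, and Mono cells 10, 36 and 47 had 384, 467 and 65.99 TPM. The Myelo cells reached 252 TPM with a median of 0.205 TPM, so the groups overlapped. Ncl was detected in 16 of the 16 cells and in 8 of 22 Myelo cells, and its log2 ratio was 3.13, and 4.01 without Myelo cell 35. HSCP-2 cell 39, which had the lowest summed level of its class, had the highest Ncl level of the 16.

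Gnl3 (nucleostemin, a GTPase first known from stem cells) had the highest ratio among these multifunctional nucleolar proteins, at 6.27. It stood at 584.6 and 421 TPM in HSCP-2 cells 44 and 29 and at 0 in the other 3, and at 189, 70.96 and 41.9 TPM in Mono cells 10, 36 and 47. Gran cells reached 18.8 TPM with a median of 0.670 TPM. A single Myelo cell passed 1 TPM, at 1.55 TPM. The 3 Mono cells and 2 of the 5 HSCP-2 cells thus lay above every Gran cell.

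Ddx21, an RNA helicase of polymerase I transcription and processing, had the lowest ratio of this role, at 1.95. HSCP-2 cells 21, 29, 39, 43 and 44 had 126, 264, 0, 133 and 44.1 TPM, Mono cells 10, 36 and 47 had 67.3, 27.01 and 0.180 TPM, and Gran cells had a median of 0.895 TPM with 18.8 TPM as the highest. In Myelo cells, cell 46 alone gave 99.1% of the sum, with 229 TPM. Without cell 46 the ratio of the 16 cells over Myelo was 5.34. The lower Ddx21 level of Gran than Myelo cells, with a log2 ratio of -1.12, rested on the same cell, since the Myelo mean was 10.5 TPM with cell 46 and 0.102 TPM without it, against 4.30 TPM in Gran cells.

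Among the genes of RNA polymerase I and of the first processing steps, 5 of 6 were at least 2-fold higher in the 16 cells, against 58.3% of all measured genes, and a median of 3 was detected in each of these cells, against 0 in a Myelo cell. Polr1a and Polr1b encode the large subunits that form the active centre of polymerase I. Polr1b stood at 218 TPM in HSCP-2 cell 44 and at 0 in the other 4, at 92.01, 5.63 and 0.340 TPM in Mono cells 36, 10 and 47, and at 165 TPM or less in Gran cells, with a median of 0. Myelo cells reached 5.15 TPM, and the log2 ratio was 4.53. Most cells of either group thus had little Polr1b, and both large subunits were detected together in 2 of the 16 cells and in no Myelo cell.

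Wdr43 is a scaffold of the first complex that forms on the precursor RNA (the tUTP complex). HSCP-2 cells 29, 43 and 39 had 613, 184 and 10.4 TPM and cells 21 and 44 had 0, Mono cells 36, 47 and 10 had 51.6, 2.17 and 1.84 TPM, and Gran cells had a median of 17.2 TPM with 252 TPM as the highest. No Myelo cell passed 0.820 TPM. Its log2 ratio of 6.24 was the highest of this role, and 12 of the 16 cells lay above every Myelo cell while the other 4 did not.

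Wdr75 is a partner of Wdr43 in the same complex and had the lowest ratio of all measured members, at 0.05. Mono cells 10, 36 and 47 had 38.9, 34.2 and 0 TPM, HSCP-2 cell 43 had 4.58 TPM with 0 in the other 4, and Gran cells had a median of 2.12 TPM with 83.1 TPM as the highest. Myelo cell 41 had 226 TPM, which was 96.4% of the Myelo sum. Without this cell the Myelo mean was 0.400 TPM and the ratio was 3.10. Wdr75 was detected in 8 of the 16 cells and in 2 of 22 Myelo cells. Mybbp1a, which binds the transcription factor Myb and acts in processing, and Heatr1, another tUTP protein, had ratios of 5.97 and 4.92, and HSCP-2 cell 44 gave 84.4% of the Heatr1 sum over the 16 cells.

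The 3 measured box C/D proteins had the highest median ratio of the 6 roles, at 7.18. Nop56, a core protein of the particle, stood at 0 to 709 TPM in Gran cells, with a median of 99.4 TPM. HSCP-2 cells 21, 29, 39, 43 and 44 had 20.2, 1832, 0, 621 and 140.2 TPM, and Mono cells 10, 36 and 47 had 286, 985 and 109 TPM. No Myelo cell passed 4.28 TPM, and 14 of the 16 cells lay above that value. The log2 ratio was 7.94, the highest of the members above 0 in Myelo cells, with means of 365 TPM in the 16 cells and 0.493 TPM in Myelo cells.

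Nop58, which pairs with Nop56 in the particle, had means of 182 TPM in the 16 cells and 0.258 TPM in Myelo cells, and a ratio of 7.18. Fbl, the methyltransferase fibrillarin, was detected in 11 of the 16 cells and in 1 of 22 Myelo cells. Gran cells had a median of 65.04 TPM of Fbl and up to 341 TPM, HSCP-2 cells 44 and 29 had 308 and 47.1 TPM with 0 in the other 3, and Mono cells 47, 36 and 10 had 255, 2.85 and 0 TPM. Myelo cell 35 was the only Myelo cell over 1 TPM, at 21.02 TPM, and the Fbl ratio was 5.43 with it and 6.35 without it. All 3 of Fbl, Nop56 and Nop58 were detected together in 9 of the 16 cells and in no Myelo cell. Rrp9, a protein bound to the U3 particle that processes the small subunit RNA, was seen in HSCP-2 cell 44 and Mono cell 47 alone, at 186 and 152 TPM.

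Among the box H/ACA proteins, Dkc1, the pseudouridine synthase dyskerin, had the highest ratio, at 5.54. It ran between 5.60 and 549.9 TPM in Gran cells, with a median of 341 TPM. HSCP-2 cells 29, 44 and 21 had 1295, 381 and 2.68 TPM while cells 43 and 39 stayed under 1 TPM, and Mono cells 36, 47 and 10 had 411, 152 and 108 TPM. In Myelo cells, cell 24 gave 97.3% of the sum, with 113 TPM, and 20 of the 22 were under 1 TPM; without cell 24 the ratio was 7.99. Gran and Mono cells as groups were high, and HSCP-2 cells were split.

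Nhp2 and Nop10, small proteins of the same particle, were the members of this role detected in the largest numbers of Myelo cells. Nop10 averaged 531 TPM in the 16 cells and 52.9 TPM in Myelo cells, where 7 of 22 had it, and its ratio was 3.30. Nhp2 averaged 394 TPM in the 16 cells, of which HSCP-2 cell 21 gave 45.9%, and 27.4 TPM in Myelo cells, where 5 of 22 had it, with a ratio of 3.80. Dkc1, Nhp2 and Nop10 were detected together in 13 of the 16 cells and in none of the Myelo cells. Gar1, the fourth core protein, was low throughout, with 23.2, 21.3 and 1.54 TPM in Mono cells 47, 10 and 36, 29.5 TPM in Gran cell 25 and 0 in every other Gran, HSCP-2 and Myelo cell. Nolc1, the chaperone of these particles, averaged 40.5 TPM in the 16 cells.

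The small subunit factors were seen in few cells. Utp20, a large scaffold protein, stood at 1380.3 TPM in HSCP-2 cell 21 and at 0 in the other 4 HSCP-2 cells. Mono cells 36, 10 and 47 had 120.2, 38.9 and 0 TPM of Utp20, Gran cells reached 71.4 TPM with a median of 3.03 TPM, and all Myelo cells were listed at 0. Cell 21 gave 84.4% of the sum over the 16 cells, and the mean was 102 TPM with it and 16.96 TPM without it.

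Rrp12, which helps export the subunits, was likewise carried by 1 cell. HSCP-2 cell 44 had 295 TPM, HSCP-2 cell 43 had 1.16 TPM and the other 3 had 0, Mono cell 36 had 2.85 TPM and the other 2 had 0, and 3 of the 8 Gran cells passed 1 TPM, up to 18.1 TPM. The mean over the 16 cells was 21.1 TPM with cell 44 and 2.83 TPM without it. Nop14, a factor of the same early particle, was detected in 8 of the 16 cells. Bysl (bystin) was detected in 3 of the 16 cells and 2 Myelo cells, and Myelo cell 6 gave 98.7% of the Myelo sum.

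Of the 10 large subunit members, a median of 6.5 was detected in the 16 cells, against 2 in a Myelo cell, and 8 of the 9 measured were at least 2-fold higher, against 58.3% of all measured genes. Pes1, Bop1 and Wdr12 form the PeBoW complex that processes the large subunit RNA. Pes1 had the highest ratio of the role, at 5.84. It stood at 145, 115 and 40.1 TPM in Mono cells 47, 10 and 36, at 452 TPM in HSCP-2 cell 29 with under 1 TPM in the other 4, and at a median of 20.5 TPM in Gran cells, up to 274 TPM. Myelo cells reached 7.22 TPM. All 3 PeBoW genes were detected together in 4 of the 16 cells and in no Myelo cell, and none of them was seen in 3 of the 16 cells and in 20 of 22 Myelo cells.

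Nop2, an RNA methyltransferase of the large subunit, went another way in part of the cells. Mono cells 36, 47 and 10 had 465, 103 and 46.8 TPM, HSCP-2 cells 21, 29, 39, 43 and 44 had 0, 1.08, 0.470, 0 and 5.55 TPM, and Gran cells had a median of 0 and up to 109 TPM. It was detected in 5 of the Myelo cells, up to 397 TPM in cell 6, with a mean of 26.6 TPM that was 8.92 TPM without that cell. The ratio of the 16 cells over Myelo was 0.79. It was -0.48 without Mono cell 36 and 2.26 without Myelo cell 6. The ratio was 2.90 for Mono, -0.74 for Gran and -3.51 for HSCP-2, each over Myelo.

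Nip7, a factor of late large subunit processing, was the member most often seen in Myelo cells, in 17 of 22, against 16 of the 16 cells. Its means were 79.3 TPM in the 16 cells and 12.2 TPM in Myelo cells, with a ratio of 2.60. Ebna1bp2, an assembly factor, averaged 365 TPM in the 16 cells, of which HSCP-2 cell 21 gave 85.6%, and 56.3 TPM without that cell, against 15.4 TPM in Myelo cells. Nop16, Nsa2, Wdr12 and Rrp1b, further factors of this subunit, had ratios of 4.73, 4.30, 4.66 and 3.87. Rrs1 was seen in 2 Mono cells alone, at 115 and 54.6 TPM.

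Each class was also set against Myelo by itself. In Gran cells 25 of 30 measured members were at least 2-fold higher and 1 (Ddx21) at least 2-fold lower, where 54.8% and 12.9% of measured genes were. The median log2 ratio was 3.37, and 1.23 over all measured genes. With no filter, 26 of 31 members above 0 in either class were at least 2-fold higher, against 41.3% of genes. Over the 24 measured members above 0 in both classes the median was 3.16.

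In HSCP-2 cells 20 of 21 measured members were at least 2-fold higher, against 50.8% of measured genes, with a median of 5.16 and 1.05 over all measured genes. For the 17 of them above 0 in both classes the median was also 5.16. The other 12 members did not pass the filter, which in 5 cells needs 2 with a signal. With no filter 27 of 31 members were higher, against 34.7% of genes, and Wdr75, Bysl and Nop2 were at least 2-fold lower, as were 31.6% of genes.

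In the 3 Mono cells the filter passed every member, since 1 cell with a signal suffices there. Of these 33, 32 were at least 2-fold higher, against 56.3% of measured genes. With no filter the count was the same, against 39.9% of genes. Of the 26 members averaging 5 TPM or more over both classes, 26 were at least 2-fold higher, against 45.5% of such genes. By the same filter 18 of 23 members were higher in Gran cells (48.4% of genes) and 25 of 28 in HSCP-2 cells (44.2%). In the 16 cells together it gave 28 of 31 (56.2%). The median for Mono over Myelo was 4.44, and 1.32 over all measured genes. For the 24 members above 0 in both classes it was 4.22. For 11 members every Mono cell lay above every Myelo cell, which held for 4.20% of measured genes. They were Polr1a, Wdr43, Mybbp1a, Nop56, Nop58, Gar1, Nolc1, Npm1, Gnl3, Pes1 and Nop16, and Polr1a did so with only 0.0700 TPM in its lowest Mono cell.

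Between HSCP-2 and Gran cells the direction depended on the measure. By the ratio of means with no filter, 19 of the 32 members above 0 in either class were at least 2-fold higher in HSCP-2 than in Gran cells and 6 at least 2-fold lower, where 26.3% and 41.8% of genes were, with a median of 1.30, and -0.40 over all these genes. By the difference of mean log2(TPM + 1), which weights single high cells less, 6 were at least 1 unit higher and 9 at least 1 unit lower. On this measure 13.9% of all these genes were higher and 36.6% lower. The members' median was 0.03, and -0.52 over all these genes. Only 9 of the 33 members were detected in a larger share of HSCP-2 than of Gran cells, and 19 in a smaller share. The share of all genes is not given for this count, and HSCP-2 cells had a lower median number of genes detected than Gran cells. The count is therefore not read as a result about the members. Without HSCP-2 cell 44 the ratio of means had 12 higher and 12 lower, against 24.1% and 47.3% of genes. Dkc1, Nop10 and Fbl were detected in 3, 3 and 2 of the 5 HSCP-2 cells, against 8, 8 and 7 of the 8 Gran cells. Gnl3, Ebna1bp2, Heatr1, Ddx21 and Utp20 had ratios of means over 4, and HSCP-2 cell 44 or cell 21 alone gave 93.7% or more of the HSCP-2 sum of Ebna1bp2, Heatr1 and Utp20. Bysl and Gar1 were listed at 0 in all 5 HSCP-2 cells.

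In Mono over Gran cells 16 of the 33 members were at least 2-fold higher and 2 (Wdr43 and Rrp12) at least 2-fold lower, where 25.1% and 29.8% of genes were, and the median was 0.99, against -0.06 over all these genes. By the difference of mean log2(TPM + 1), 23 were at least 1 unit higher and 1 at least 1 unit lower, against 31.9% and 14.5% of genes. The median on this measure was 1.97, and 0.18 over all these genes. Without Mono cell 36 the ratio of means had 14 higher and 9 lower, against 23.9% and 33.7% of genes. Without Mono cell 10 it had 16 higher and 4 lower, against 21.5% and 37.2%. Gnl3, Nop2 and Nop16 had ratios of 4.17, 3.64 and 3.33 in Mono over Gran. Rrp9 and Rrs1 were listed at 0 in all 8 Gran cells. Both comparisons share the 8 Gran cells. Gran-2 cells and Gran-1 cells were close to each other, with a median summed level of 3661 and 3437 TPM and 20 and 17.5 members detected.

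Other genes of the pathway were taken from a list that, like the members, was chosen with earlier results of these data known. Of 95 measured, 75 were at least 2-fold higher in the 16 cells and 1 at least 2-fold lower, against 58.3% and 10.3% of all measured genes, with a median log2 ratio of 2.70. The small subunit genes had 32 of 38 higher, the large subunit genes 28 of 35, other polymerase I genes 9 of 11 and the RNA exosome, which trims the precursor, 6 of 11, a share near that of all measured genes. Nob1, the nuclease that makes the end of the small subunit RNA, had the highest ratio, with means of 79.9 TPM in the 16 cells and 0.0932 TPM in Myelo cells. It was detected in 9 of the 16 cells. Tbl3, Cirh1a, Pno1, Rrp7a and Tsr1, further small subunit factors, averaged 41.7 to 67.6 TPM in the 16 cells and 0.273 TPM or less in Myelo cells. They were detected in 5, 7, 7, 6 and 5 of the 16 cells, with medians of 0.26 TPM or less. For each of these 5 genes, 1 cell gave 34.2% to 43.8% of the sum over the 16 cells.

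The 4 lowest were Nvl, Wdr3, Senp3 and Eif6. Nvl, an ATPase of large subunit assembly, averaged 15.1 TPM in the 16 cells and 517 TPM in Myelo cells. A single Myelo cell gave 96.3% of that sum, with 10953 TPM, and Nvl was detected in 11 of the 16 cells and 7 of 22 Myelo cells. Wdr3, Senp3 and Eif6 had ratios of -0.99, -0.90 and -0.63, and 1 Myelo cell gave 65.3%, 59.5% and 56.8% of their Myelo sums. They were detected in 4, 8 and 9 of the 16 cells and each in 4 of 22 Myelo cells. The other gene groups of protein synthesis and growth had lower medians. These lists too were chosen with earlier results of these data known, so the order of the medians is a description only. Cytosolic ribosomal proteins had a median of 2.27 with 74 of 77 higher, translation factors 1.92 with 24 of 32, and S phase genes of DNA replication 1.17 with 18 of 30. Beside the 58.3% of all measured genes and their median of 1.39, the S phase genes did not stand apart.

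**Figure D4:**
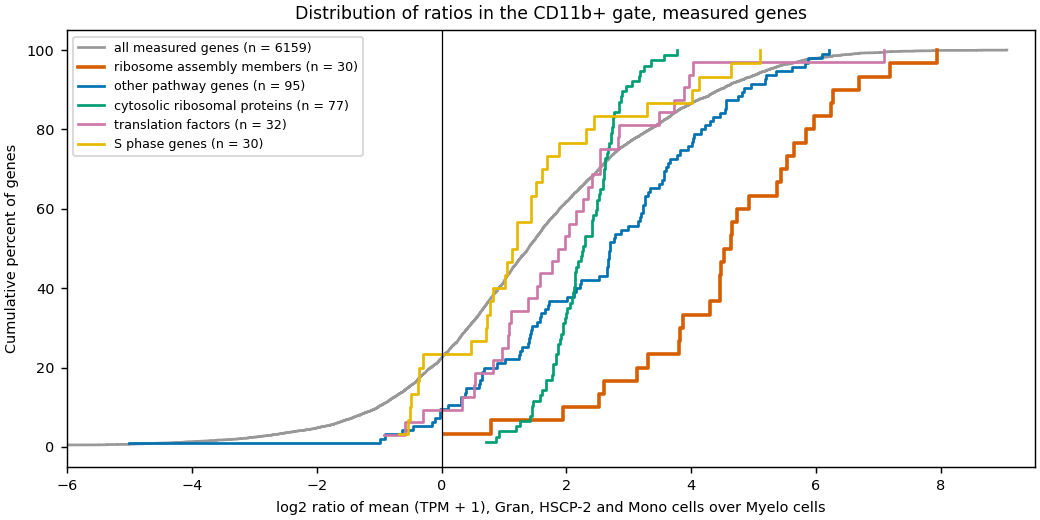
Cumulative percent of measured genes against the log2 ratio of mean TPM + 1 in Gran, HSCP-2 and Mono cells over Myelo cells, for the 30 measured members and for other gene lists. The members' curve is the furthest to the right at its middle, with medians of 4.59 for the members, 2.70 for the other pathway genes, 2.27 for ribosomal proteins and 1.39 for all measured genes. The lists were chosen with earlier results of these data known.

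Myc, a transcription factor known to act on many genes of this pathway, averaged 48.9 TPM in the 16 cells and was listed at 0 in all 22 Myelo cells. It was detected in 8 of the 16 cells, and 1 cell gave 60.5% of the sum. Mxd1, Mxi1 and Mxd3, which encode repressors that compete with Myc for its partner Max, had means of 18.3, 1.28 and 0.619 TPM in the 16 cells and 109, 30.3 and 20.02 TPM in Myelo cells. Their log2 ratios were -2.50, -3.78 and -3.70, and they were detected in 4, 5 and 3 of the 16 cells and in 11, 6 and 6 of 22 Myelo cells. Max had a ratio of -0.27.

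The few cells of these classes in the Ly6g gates gave values outside the comparison above. In the Ly6g high gate Mono cell 77 had a summed level of 9503 TPM with 25 members, and HSCP-2 cells 56 and 85 had 5860 and 1689 TPM with 12 and 7 members. The 27 Myelo-2 cells of that gate ranged between 22.9 and 1083 TPM, with a median of 4 members. The 13 Myelo-4 cells had the fewest, with a median of 32.2 TPM and 1 member. Each Mono and HSCP-2 cell of the gate thus had a higher sum than every Myelo-2 cell, but HSCP-2 cell 85 had no more members than the highest Myelo-2 cell, at 7. Most of the sum of cell 85 was Nolc1, at 961 TPM, and Nip7, at 514 TPM, and its Npm1 was 0. The 2 HSCP-2 cells had 4 and 5 of the progenitor markers. B cell markers reached 1550 TPM and megakaryocyte markers 1708 TPM among these 2 cells.

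In the Ly6g low gate Gran-2 cells 38 and 6 had 5499 and 2935 TPM with 27 and 17 members, and Mono cell 34 had 6380 TPM with 25. The 31 Myelo-2 cells ranged between 12.1 and 2759 TPM with 2 to 17 members. The 4 Myelo-1 cells had 508 to 1390 TPM and 13 to 16 members, and 3293 to 4174 genes. Npm1 stood at 3300 TPM in Mono cell 34, at 1969 and 1178 TPM in the Gran-2 cells, between 21.2 and 364 TPM in Myelo-1 cells, and at a median of 160 TPM in Myelo-2 cells.

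**Figure D5:**
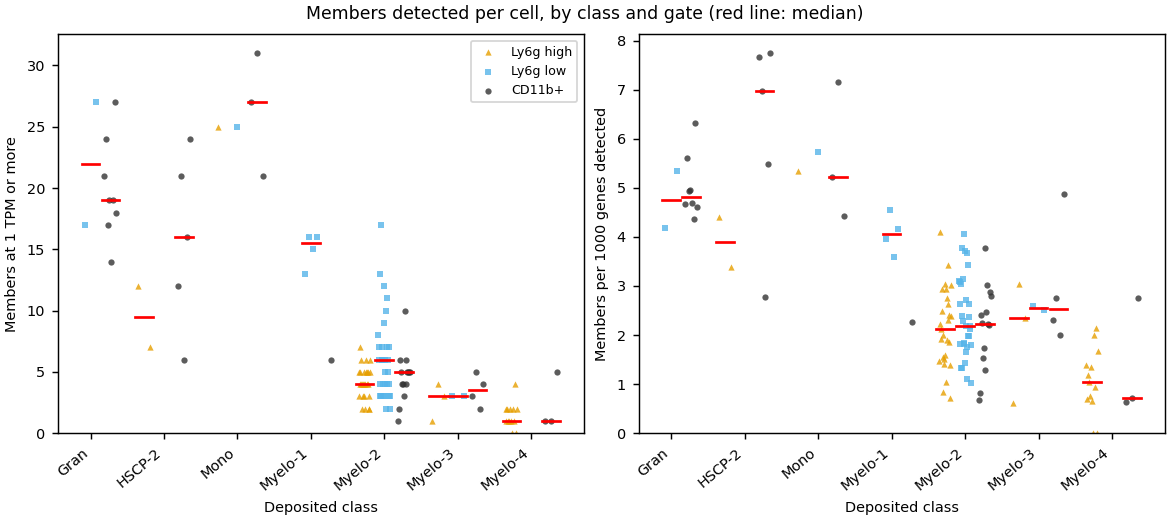
Members at 1 TPM or more per cell (left) and per 1000 genes detected (right) by deposited class, the 3 gates side by side in each class; points are cells and red lines medians of classes with more than 1 cell. Gran and Mono cells lie above the Myelo-2 to Myelo-4 cells in the count in all gates that hold them, apart from the highest Myelo-2 cell of the Ly6g low gate, which matches the lower Gran-2 cell at 17, and Myelo-1 cells of the Ly6g low gate lie between, with 13 to 16 members.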

How the data were processed

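Single cell RNA-seq libraries were made with the SMARTer and Nextera XT kits and read as 150 bp pairs, per the labels. Bowtie2, RSEM and the genome build mm9 are named in the submitters' processing notes. The authors deposited 1 table of log2(TPM + 1) values per cell and a class for each cell. All columns could be tied to a sample. TPM was recovered as 2 to the power of the deposited log2 value, less 1, and sums to between 999633 and 1005380 per cell. Read depth per cell is unknown, so intervals and detection limits cover the number of cells only. The kits do not mark strand, so overlapping antisense transcripts cannot be told apart.

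Means, medians, ranges and shares of cells were computed in Python 3.11.15 (pandas 2.3.3, numpy 2.4.6), with a pseudocount of 1 TPM, detection at 1 TPM, a filter at 25% of cells and a call at 2-fold. No count model or p-value was used. The ratio step was run on resampled Myelo-2 cells with planted fold changes, which checks its arithmetic only. Values are given for the members with the highest and lowest ratio of each of the 6 roles and for Npm1, Ncl, Fbl and Polr1b, and for the 6 highest and 4 lowest other pathway genes averaging 5 TPM or more. The members and gene lists were chosen with earlier results of these data known. Protein sequences were not used here.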

Additional observations from a re-analysis of the deposited data

Results flagged for a closer look

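Among the Gran and the HSCP-2 cells, 1 cell lay far from the others of its class, by the gap to its nearest neighbour as a share of the range, in 7 of the 36 sets of values tested. Among replicates chance gives about 1 in 20, but cells of 1 sample are not replicates, and a gene at 0 in all cells but 1 is always picked out this way. In Gran cells these were Gar1 in cell 25, at 4.93 on the log2(TPM + 1) scale, and Polr1b in cell 4, at 7.37. In HSCP-2 cells they were Utp20 in cell 21, at 10.43, Pes1 in cell 29, at 8.82, Rrp12 and Polr1b in cell 44, at 8.21 and 7.78, and Wdr75 in cell 43, at 2.48. In each of these the class mean is mostly the level of 1 cell. The highest level in any other cell of these sets was 4.83 TPM, for Polr1b in Gran cell 9.

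Some single cells lay outside the comparisons. The summed level of the members was 9500 TPM in the Eryth cell of the CD11b+ gate and 7335 TPM in its Multi-Lin cell, both above every Myelo cell of the gate, and 2096 TPM in the MDP cell of the Ly6g low gate.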

How the results depend on the processing

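No paired analysis was possible because the numbers in the labels name cells, not animals. No alternative turned the direction of a median or a count over Myelo. A pseudocount of 0.1 TPM moved the median log2 ratio of the members to 6.16 for the 16 cells, 5.05 for Gran and 6.26 for Mono, each over Myelo, and 10 TPM moved it to 3.02, 1.86 and 2.75. Among cells with 1500 to 3500 genes the Gran median was 2.21, and 0.62 over all measured genes. It rested on 2 Gran cells and 22 measured members, 19 of them at least 2-fold higher, against 43.6% of genes. In the range of 2000 to 3100 genes, added after the data had been seen, 18 of 21 measured members were at least 2-fold higher in the 5 cells left (49.2% of genes), and 11 of 16 in the 1 Gran cell left (35.2%). Fewer members were measured there, and the share of them called was also lower than the 28 of 30 and 25 of 30 found over all cells. No Mono cell lay in either range. The median number of members detected in the 16 cells was 4.44 times that in Myelo cells at 1 TPM, 9 times at 5 TPM, 8.75 times at 10 TPM and 2.26 times per 1000 genes. The mean summed level was 16.02 times as high and the median 40.9 times.

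Rescaling without granule genes lowered the median of all measured genes to 0.60, with 42.2% at least 2-fold higher, while the members' median was 4.41. Leaving out 1 cell at a time, Myelo cells included (Myelo cells added after the data had been seen), the median ran between 4.29 and 4.68 for the 16 cells, 3.08 and 3.69 for Gran, 4.60 and 5.52 for HSCP-2 and 4.35 and 4.77 for Mono, and the count between 27 and 29, 23 and 27, 20 and 27, and 27 and 32. Among single members, Nop2 ran between -0.48 and 2.26 and Wdr75 between -0.69 and 3.10, and Nop2 and Wdr75 stood at -4.06 and -2.93 among cells with 1500 to 3500 genes.

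For the classes set against Gran, alternatives were added after the data had been seen. Without the highest cell of each class, gene by gene, the HSCP-2 median was -0.59, and -0.34 over all genes. With that setting 7 members were at least 2-fold higher and 14 lower, against 9.85% and 41.5% of genes. The difference of mean log2(TPM + 1) gave 6 higher, against 13.9% of genes. Leaving out 1 cell at a time, the HSCP-2 median ran between 0.67 and 1.53, with 12 to 20 higher and 4 to 12 lower. Of all genes, 24.1% to 27.6% were higher and 40.9% to 47.3% lower. In the same way the Mono median ran between 0.66 and 1.44, with 14 to 20 higher and 1 to 9 lower. Here 21.5% to 27.3% of all genes were higher and 28.5% to 37.2% lower. In Mono over Gran 7 were lower without the highest cell of each class, against 28.3% of genes. Only 1 was lower with a pseudocount of 10 TPM (16.9% of genes) and with the class-blind filter of 5 TPM (33.3%). The difference of mean log2(TPM + 1) also gave 1 lower (14.5%).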
